A study of Mus musculus with 17 samples.

Results

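The genes described here move iron and heme through the cell: Slc40a1 and Cp act in iron export, Tfrc and Slc11a2 in import, Fth1 in storage, Aco1 and Ireb2 in sensing, and Hmox1 and Hmox2 in heme breakdown. They are 9 of the 19938 genes tested. Each was found by its symbol in the platform annotation and had 1 singly named probe set, so no choice between probe sets arose. RNA came from 3134 cells, a mouse mammary epithelial line with a tetracycline-regulated transactivator, and was hybridized to 17 Affymetrix arrays. The control line carried the transactivator alone. Each of 3 further lines also carried a stably integrated, Flag-tagged dominant-negative form of a chromatin remodeler. These were Brg1 (dnBrg1, a motor of SWI/SNF complexes, gene Smarca4) and Chd4 (dnChd4, a motor of the NuRD complex). The last was Snf2h (dnSnf2h, a motor of ISWI complexes, gene Smarca5). Stocks of all 4 lines were held in 5 µg/ml tetracycline, which keeps the transactivator and the dominant-negative protein off. RNA was taken after 48 h of growth with the drug (repressed) or without it (induced). Control cells gave 2 arrays with the drug and 3 without it, and dnBrg1, dnChd4 and dnSnf2h cells gave 2 of each kind. Every induced group, the control included, therefore expressed the transactivator and had lost the drug. The labels do not say whether a line is 1 clone or whether replicates grew as separate cultures. The p-values then reflect the spread among these samples alone, and that spread may be technical.

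Ferroportin, the product of Slc40a1, is the known exporter of iron from animal cells, and ceruloplasmin, the product of Cp, is a copper-containing ferroxidase that oxidizes exported iron so that transferrin can bind it. Transferrin receptor (Tfrc) brings transferrin-bound iron into the cell, DMT1 (Slc11a2) carries it out of the endosome, and the ferritin heavy chain (Fth1) oxidizes and stores it. Heme oxygenases split heme into biliverdin, carbon monoxide and iron. Hmox1 is the inducible form, repressed by BACH1 and activated by NRF2, and Hmox2 is the constitutive form. IRP1 (Aco1) and IRP2 (Ireb2) bind iron-responsive elements in messenger RNAs when iron is scarce, which stabilizes Tfrc mRNA and blocks translation of Fth1 and Slc40a1 mRNA. Mammary epithelium uses these proteins both for its own iron supply and to pass iron into milk.

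Values are deposited log2 signals, and a change is a difference of group means on that scale. The contrasts among the dominant-negative lines were fitted on their 12 arrays in limma, with an adjusted p under 0.05 as the threshold. In the control line, the library labelled repressed replicate 1 and the one labelled induced replicate 1 went against their labels. Across all genes, the first was closest to control induced replicate 2 (r = 0.9953) and the second to control repressed replicate 2 (r = 0.9945). The difference between the 2 repressed control libraries correlated with the mean change in the dominant-negative lines at r = 0.798, and those between control induced replicate 1 and the other induced controls at -0.815 and -0.817, against -0.041 to 0.185 for all other pairs of replicates. Results that need the control line are therefore given as labelled, on 17 arrays, and without those libraries, on 15 arrays. Those libraries were picked out in part for running against the mean dominant-negative change, so dropping them moves the control change towards it. A likeness between control and dominant-negative changes on 15 arrays is therefore not independent, and that set holds a lone repressed control array. Chd4 read 10.56 and 10.35 in repressed and 12.27 and 12.27 in induced dnChd4 cells, a rise of 1.82 (SE 0.11, limma adjusted p = 1.43e-07). Smarca4 in dnBrg1 cells (0.12, adjusted p = 0.615) and Smarca5 in dnSnf2h cells (-0.24, adjusted p = 0.209) did not pass, and whether their probe sets detect the integrated forms is not given in the sources used here. Of 9 epithelial markers, Epcam and Krt19 had medians of 4.10 and 4.58 over the 17 arrays, under the level of 4.77 that marks the dimmest 30% of genes. The other 7 had medians above it, from 4.85 (Krt5) and 5.17 (Cdh1) to 6.35 (Krt8) and 7.49 (Krt14). All 8 mesenchymal markers were above it, with Vim at 12.71.

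Slc40a1, the iron exporter, rose in the dnBrg1 line and passed the test in no other line. It read 4.77 and 4.75 on the repressed and 6.58 and 6.39 on the induced dnBrg1 arrays, a 3.31-fold rise (log2 change 1.72, SE 0.11, limma adjusted p = 3.49e-07). All other arrays of the series lay between 3.66 and 4.19, below both repressed dnBrg1 arrays. In the dnChd4 line the gene read 3.88 and 3.74 repressed and 3.90 and 3.95 induced, a change of 0.12 (95% interval -0.12 to 0.36, adjusted p = 0.579). In the dnSnf2h line it read 3.90 and 3.66 repressed and 3.95 and 3.74 induced, a change of 0.06 (interval -0.18 to 0.30, adjusted p = 0.788). Repressed and induced arrays overlapped in dnSnf2h cells, and in dnChd4 cells they were apart without passing. Control arrays read 3.97 and 4.19 repressed and 3.93, 3.84 and 3.87 induced, a change of -0.20 as labelled (adjusted p = 0.994) and -0.34 on 15 arrays (adjusted p = 0.0751). In the order of group means, induced dnBrg1, repressed dnBrg1 and repressed control cells each stood clear of the next group, and the 5 lowest groups overlapped with their neighbours. The mean of Slc40a1 over all 17 arrays was 4.30, in the dimmest 30% of genes, so its level in the other lines is near the low end of the scale. A change there, above all a decrease, could be hard to detect. Differences in level from those lines, including between repressed lines, may be lower bounds. The repressed dnBrg1 mean, 4.76, was also just under the 4.77 that marks the dimmest 30% of genes. The 3.31-fold rise in dnBrg1 cells may therefore be a lower bound too. Differences between inductions could be off in either direction. Macrophages also express much Slc40a1 and Hmox1. Of 14 macrophage markers, 10 had medians among the dimmest 30% of genes, Adgre1, Csf1r and Ptprc among them, and 4 were above, namely Lyz2 (6.06), Cd68 (5.93), Cd14 (5.90) and Tyrobp (4.97). On dnBrg1 induction 1 of the 14 rose and 1 fell, where 8.01% of all genes rose and 6.22% fell. The summed linear signal of the 14 was 421 to 432 in repressed and 502 to 515 in induced dnBrg1 cells, inside the range of 361 to 517 over the other groups, and its part in the result was not tested.

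**Figure D1:**
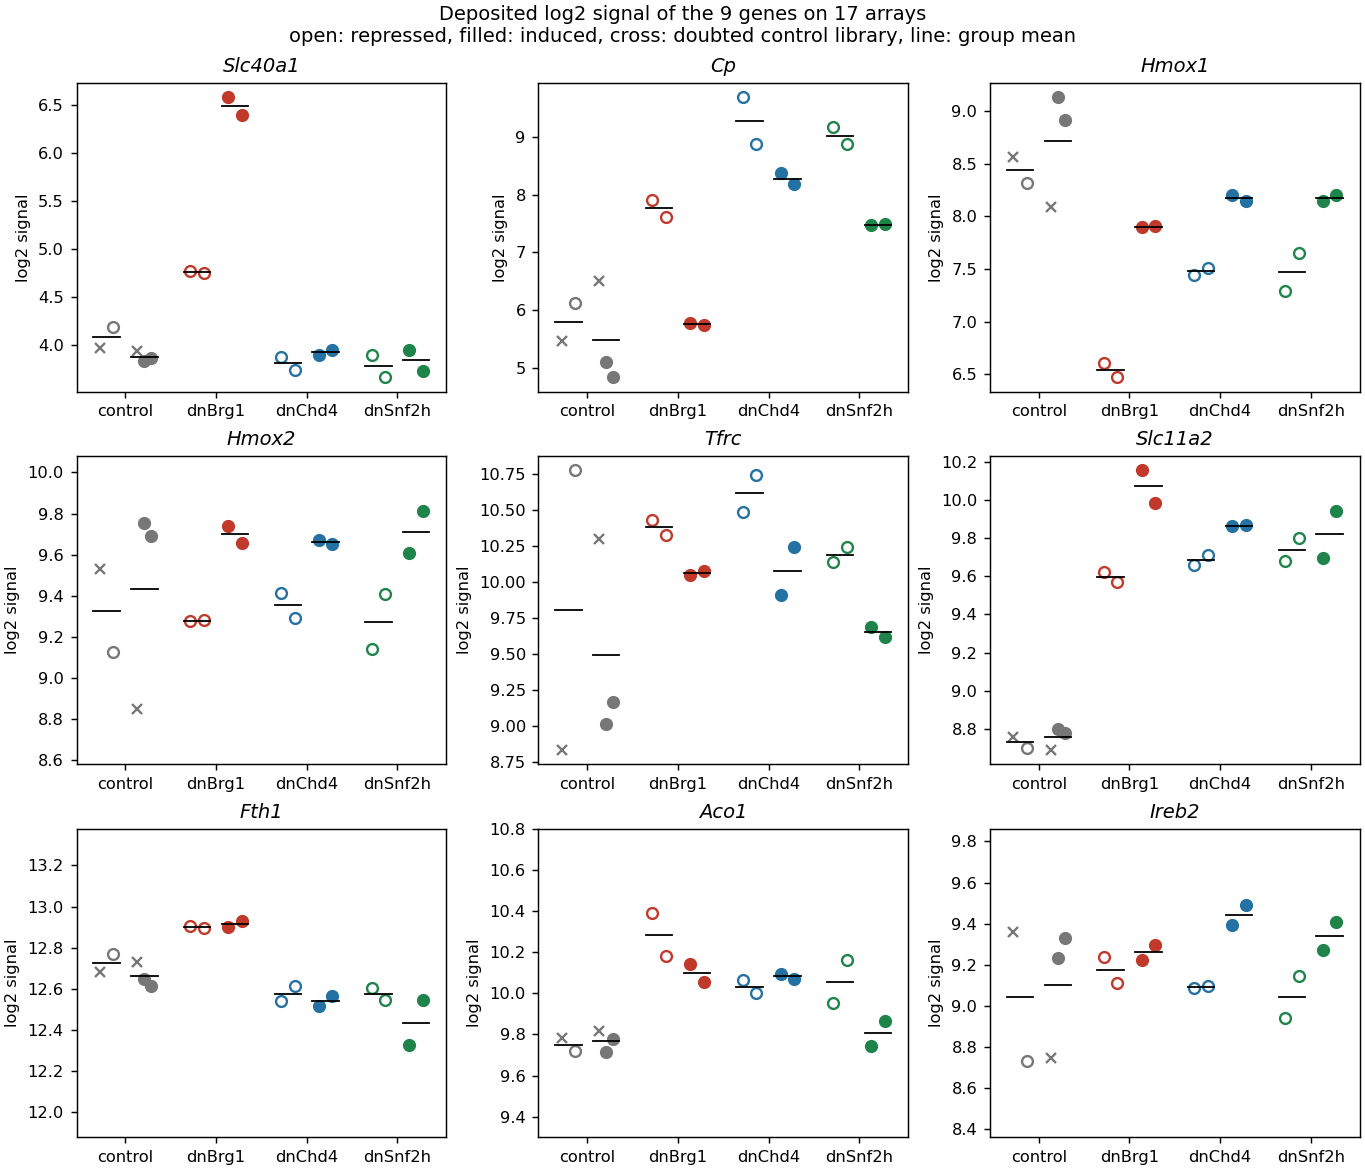
Deposited log2 signal of the 9 genes on each of the 17 arrays, by line, with open symbols for repressed and filled symbols for induced cells. Crosses mark the control libraries that went against their labels and lines mark group means. Slc40a1 lies above 4.7 on the dnBrg1 arrays and between 3.66 and 4.19 on all others, and Cp falls and Hmox1 rises from open to filled symbols in each dominant-negative line.

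Cp, the ferroxidase that works with ferroportin, fell in all 3 dominant-negative lines, opposite to Slc40a1 in the dnBrg1 line. It read 7.92 and 7.62 in repressed and 5.78 and 5.74 in induced dnBrg1 cells, a 4.02-fold decrease (log2 change -2.01, SE 0.19, limma adjusted p = 1.29e-05). In dnSnf2h cells it went from 9.17 and 8.87 to 7.47 and 7.49, a change of -1.54 (SE 0.19, adjusted p = 7.95e-05). In dnChd4 cells it went from 9.69 and 8.88 to 8.37 and 8.18, a change of -1.01 (SE 0.19, adjusted p = 0.00173). No repressed array overlapped with an induced array of its own line. The control arrays read 5.47 and 6.12 repressed and 6.51, 5.10 and 4.83 induced, around the level of induced dnBrg1 cells. Its change was -0.31 as labelled (adjusted p = 0.994) and -1.15 on 15 arrays (SE 0.23, adjusted p = 0.00129). Cp had the largest range of the 9 genes, 4.87 over 17 arrays. Its order ran from repressed dnChd4 and repressed dnSnf2h, which overlapped, through induced dnChd4, repressed dnBrg1 and induced dnSnf2h, each clear of the next, to induced dnBrg1 and both control groups, which overlapped.

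RefSeq promoter windows (build GRCm38.p6) were matched for Cp, Hmox2, Tfrc, Fth1, Aco1 and Ireb2. Slc40a1, Hmox1 and Slc11a2 had no window and were not searched. Shown are the 250 bases before the most upstream annotated start of Cp, which fell in every dominant-negative line, and of Tfrc, which fell in dnChd4 and dnSnf2h cells, both 5′ to 3′ on the + strand, at chr3:19956804-19957053 and chr16:32608646-32608895. Capitals mark a match to TGANTCA, a loose form of the AP-1 motif that takes any base at N. The matched stretch reads TGATTCA, which does not establish an AP-1 site.
Cp: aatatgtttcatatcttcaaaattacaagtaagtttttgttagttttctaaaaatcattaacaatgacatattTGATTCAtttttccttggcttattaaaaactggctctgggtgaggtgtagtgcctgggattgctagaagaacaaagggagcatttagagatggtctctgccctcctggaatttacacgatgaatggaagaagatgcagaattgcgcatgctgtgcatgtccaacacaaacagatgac
Tfrc: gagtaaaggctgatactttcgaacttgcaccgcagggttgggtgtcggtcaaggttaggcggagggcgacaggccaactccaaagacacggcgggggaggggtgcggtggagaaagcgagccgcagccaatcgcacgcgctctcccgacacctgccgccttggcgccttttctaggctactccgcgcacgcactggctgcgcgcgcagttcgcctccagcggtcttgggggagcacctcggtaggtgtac
The Cp match begins 177 bases before that start. It was the single match among the members' windows to 4 motifs searched: the antioxidant response element TGACNNNGC, the E-box CACGTG and TGANTCA on both strands, and the iron-responsive element loop CAGTGN on the gene strand in the 50 bases after the start. Of all 32851 RefSeq windows of 300 bases, 12.39% held the antioxidant element, 7.15% the E-box and 7.81% the loose letters TGANTCA. The loop letters after the start were held by 7.08%. A match is a description of the letters only, and elements outside these windows were not searched.

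Hmox1, the inducible heme oxygenase, rose in every dominant-negative line, from the lowest starting level in dnBrg1 cells. It read 6.61 and 6.47 in repressed and 7.90 and 7.90 in induced dnBrg1 cells, a 2.57-fold rise (log2 change 1.36, SE 0.11, limma adjusted p = 3.25e-06). It went from 7.44 and 7.51 to 8.21 and 8.15 in dnChd4 cells, a change of 0.70 (SE 0.11, adjusted p = 0.000467). It went from 7.29 and 7.65 to 8.15 and 8.21 in dnSnf2h cells, a change of 0.71 (SE 0.11, adjusted p = 0.000482). In each of these lines the repressed and induced arrays were apart, and even after induction both dnBrg1 arrays lay below the induced dnChd4 and dnSnf2h arrays. Control arrays read 8.57 and 8.32 repressed and 8.09, 9.13 and 8.91 induced, a change of 0.27 as labelled (adjusted p = 0.994) and 0.71 on 15 arrays (SE 0.14, adjusted p = 0.00112). The control groups had the 2 highest means and overlapped with each other.

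Hmox2, the constitutive heme oxygenase, moved by smaller steps. It read 9.28 and 9.28 repressed and 9.74 and 9.66 induced in dnBrg1 cells, a change of 0.42 (SE 0.11, limma adjusted p = 0.0159). The values were 9.14 and 9.41 against 9.61 and 9.81 in dnSnf2h cells (0.44, adjusted p = 0.0104) and 9.41 and 9.29 against 9.67 and 9.65 in dnChd4 cells (0.31, adjusted p = 0.0621). Induced arrays were above the repressed arrays in all 3 lines, and the means of the 8 groups formed 1 chain of overlapping neighbours. The dnBrg1 call was lost without any 1 of the 4 dnBrg1 arrays (adjusted p 0.0678 to 0.135), and with all probe sets (0.0538). The dnSnf2h call was lost without repressed replicate 1 (0.0755) or induced replicate 2 (0.0993), and with that line fitted alone (0.116). The control change was 0.10 as labelled (adjusted p = 0.994) and 0.60 on 15 arrays (adjusted p = 0.00198).

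Tfrc, the transferrin receptor, fell in dnChd4 and dnSnf2h cells. It read 10.48 and 10.74 repressed and 9.91 and 10.24 induced in dnChd4 cells, a change of -0.54 (SE 0.12, limma adjusted p = 0.00467). In dnSnf2h cells it went from 10.14 and 10.24 to 9.69 and 9.62, also a change of -0.54 (SE 0.12, adjusted p = 0.00503). In dnBrg1 cells it read 10.43 and 10.33 repressed and 10.05 and 10.08 induced, a change of -0.32 that did not pass (95% interval -0.57 to -0.06, adjusted p = 0.0959). The groups were apart in all 3 lines. The dnChd4 call was lost without repressed replicate 2 (-0.41, adjusted p = 0.0907) or induced replicate 1 (-0.37, adjusted p = 0.10). No member depended more on the control labels: the control arrays read 8.83 and 10.78 repressed and 10.29, 9.02 and 9.17 induced. As labelled their change was -0.31 (SE 0.45, adjusted p = 0.994), and on 15 arrays it was -1.68 (SE 0.14, adjusted p = 4.53e-07), with 1 repressed array left.

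Slc11a2, which encodes DMT1, rose in dnBrg1 cells, from 9.62 and 9.57 to 10.16 and 9.99 (log2 change 0.48, SE 0.10, limma adjusted p = 0.00602). The call was lost without induced replicate 1 (0.39, adjusted p = 0.0960). The gene read 9.66 and 9.71 against 9.86 and 9.87 in dnChd4 cells (0.18, adjusted p = 0.301) and 9.68 and 9.80 against 9.70 and 9.94 in dnSnf2h cells (0.08, adjusted p = 0.680), where the groups overlapped. All 5 control arrays lay between 8.69 and 8.80, below every array of the dominant-negative lines, of which the lowest read 9.57.

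Fth1, the ferritin heavy chain, passed in no line on induction. Its changes were 0.01 in dnBrg1 (95% interval -0.19 to 0.22), -0.04 in dnChd4 (-0.24 to 0.17) and -0.14 in dnSnf2h cells (-0.34 to 0.07). It separated lines rather than treatments: the 4 dnBrg1 arrays read 12.90, 12.90, 12.90 and 12.93, above all other arrays, which ran from 12.33 to 12.77. Among the iron sensors, Ireb2 rose in dnChd4 cells, from 9.09 and 9.10 to 9.39 and 9.49 (0.35, SE 0.10, limma adjusted p = 0.0247), a call lost without any 1 of the 4 dnChd4 arrays (adjusted p 0.0717 to 0.168) and with all probe sets (0.0582). Its change was 0.30 in dnSnf2h (adjusted p = 0.0554) and 0.09 in dnBrg1 cells (adjusted p = 0.686), and in the control line 0.06 as labelled and 0.55 on 15 arrays (adjusted p = 0.00265). Aco1 passed in no line. Its changes were -0.19 in dnBrg1 (adjusted p = 0.306), 0.05 in dnChd4 (0.833) and -0.25 in dnSnf2h cells (0.123), where it passed without repressed replicate 1 (-0.35, adjusted p = 0.0432). The 5 control arrays of Aco1 lay between 9.71 and 9.82, and the highest array was a repressed dnBrg1 array at 10.39.

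**Figure D2:**
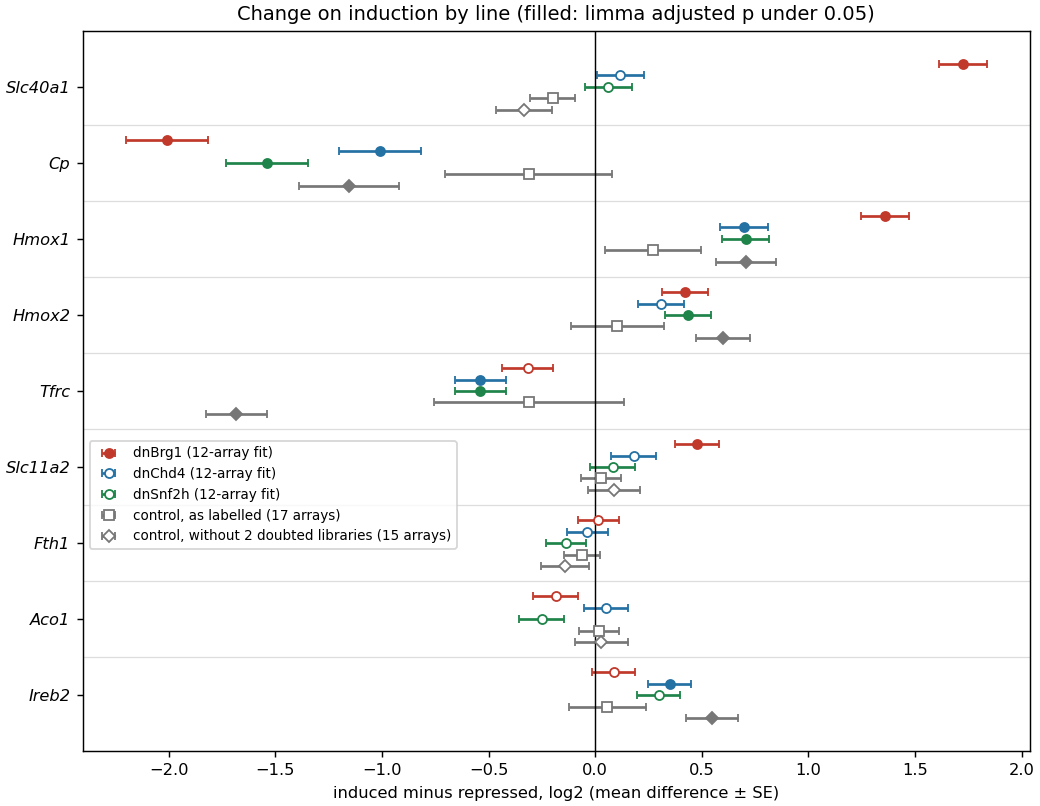
Change on induction of the 9 genes in each line, as induced minus repressed log2 means with SE bars. Filled symbols passed limma's adjusted p of 0.05. Grey squares show the control line as labelled on 17 arrays, where no gene of the 9 passed, and grey diamonds show it on 15 arrays, where Cp, Hmox1, Hmox2, Tfrc and Ireb2 passed.

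By line, 4 of the 9 genes rose in dnBrg1 cells (Slc40a1, Hmox1, Hmox2 and Slc11a2), where 8.01% of all genes rose, and 1 fell (Cp), where 6.22% fell. In dnChd4 cells 2 rose (Hmox1 and Ireb2; background 11.2%) and 2 fell (Cp and Tfrc; background 6.82%). In dnSnf2h cells 2 rose (Hmox1 and Hmox2; 9.2%) and 2 fell (Cp and Tfrc; 8.34%). The median change of the 9 genes was 0.09, 0.12 and 0.06 in these lines, beside -0.03, -0.03 and -0.01 over all genes. In the control line as labelled none passed limma's threshold, and 0% of all genes did, with 0 of the 9 and 845 of all genes at an unadjusted p under 0.05. On 15 arrays, 3 rose in the control line (Hmox1, Hmox2 and Ireb2; background 15.4%) and 2 fell (Cp and Tfrc; 11.2%). Loss of the drug and the transactivator are common to all lines, so a change seen in the control line too cannot be told apart from them. With the control arrays in the pooled spread (17 arrays), only Slc40a1 (adjusted p = 1.14e-05) and Hmox1 (adjusted p = 0.0368) passed in dnBrg1 cells, where 0.341% of all genes did. None of the 9 passed in dnChd4 or dnSnf2h cells, where 0.0953% and 0.00502% of all genes did.

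The differences between inductions ask whether a gene changed more on induction in one line than in another. Slc40a1 was the 1 member that passed. Its induction in dnBrg1 cells exceeded that in dnChd4 cells by 1.61 (SE 0.16, limma adjusted p = 5.05e-05), where 1.27% of all genes passed in either direction. It exceeded that in dnSnf2h cells by 1.66 (SE 0.16, adjusted p = 0.00017), where 0.632% passed. These comparisons share the dnBrg1 arrays. For Hmox1 the differences were 0.66 against dnChd4 (95% interval 0.32 to 1.00, adjusted p = 0.0602) and 0.66 against dnSnf2h (0.32 to 0.99, adjusted p = 0.0938). Neither passed, and both passed without dnSnf2h repressed replicate 1 (adjusted p = 0.0109 and 0.00988). For Cp they were -0.999 against dnChd4 (interval -1.58 to -0.42, adjusted p = 0.113) and -0.47 against dnSnf2h (-1.05 to 0.11, adjusted p = 0.620). The first passed without dnChd4 repressed replicate 1 (-1.41, adjusted p = 0.00284). The remaining 6 genes lay between -0.26 (Ireb2, against dnChd4) and 0.39 (Slc11a2, against dnSnf2h), and none of those passed. Between dnChd4 and dnSnf2h no member passed (background 0.13%), none at an unadjusted p under 0.05 where 1482 of all genes did. The widest interval there was that of Cp, -0.05 to 1.11, and that of Hmox1 ran from -0.35 to 0.33.

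**Figure D3:**
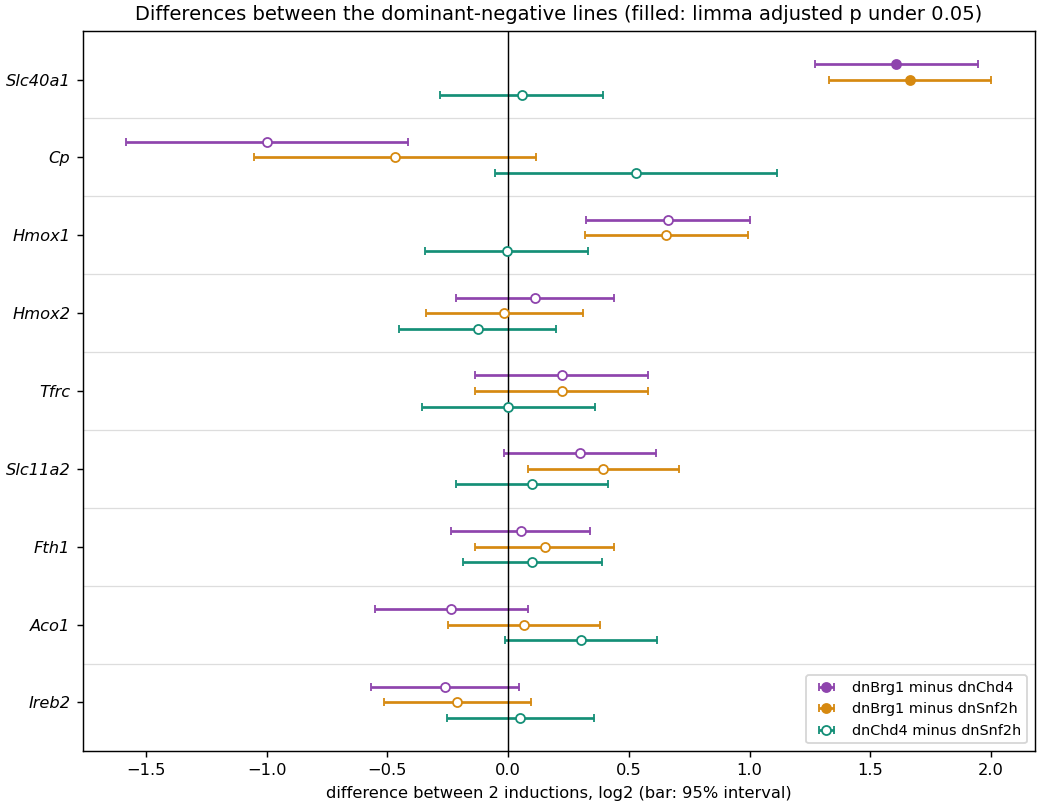
Differences between the inductions of the 3 dominant-negative lines for the 9 genes, on the log2 scale, with 95% intervals. Filled points passed limma's adjusted p of 0.05. Slc40a1 is filled at 1.61 and 1.66 for dnBrg1 against dnChd4 and dnSnf2h, and every other point is open.

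Against the control induction, Slc40a1 rose more in dnBrg1 cells by 1.93 as labelled (SE 0.16, limma adjusted p = 0.000189), where 0.0903% of all genes passed, and by 2.06 on 15 arrays (adjusted p = 3.73e-06), where 6.95% did. It was the 1 member that passed as labelled. On 15 arrays Hmox1 also passed (0.65, adjusted p = 0.0399), as did Tfrc. Tfrc differed by -0.01 in dnBrg1, -0.23 in dnChd4 and -0.23 in dnSnf2h cells as labelled, and by 1.37, 1.15 and 1.15 on 15 arrays (adjusted p = 0.000451, 0.0116 and 0.0087), a turn in direction that rests on which control libraries are kept. The Cp change in dnBrg1 minus that in control cells was -1.70 as labelled and -0.85 on 15 arrays, and neither passed (adjusted p = 0.707 and 0.107). For dnChd4 and dnSnf2h minus control no member passed as labelled (background 0.0401% and 0%, with 0 of the 9 and 771 and 1121 of all genes at an unadjusted p under 0.05). On 15 arrays Tfrc alone passed in each (background 0.818% and 2.08%). These comparisons share the control arrays.

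The dnBrg1 line already differed from the dnChd4 and dnSnf2h lines before induction. No test was made against repressed control cells. Their means lay on the same side as those lines for Slc40a1, Hmox1 and Fth1, but below repressed dnBrg1 cells for Cp (5.79 against 7.77). Repressed dnBrg1 cells had more Slc40a1 than repressed dnChd4 cells by 0.95 (SE 0.11, limma adjusted p = 4.76e-05), less Cp by 1.52 (log2 difference -1.52, adjusted p = 9.56e-05), less Hmox1 (-0.94, adjusted p = 5.54e-05) and more Fth1 (0.32, adjusted p = 0.0330). Those are 4 of the 9 genes, where 14.4% of all genes passed in either direction. Against repressed dnSnf2h cells the same 4 genes passed, with differences of 0.98, -1.25, -0.93 and 0.33 (adjusted p = 4.1e-05, 0.00051, 6.57e-05 and 0.0327), where 14.3% of all genes passed. Both Fth1 calls were lost when single arrays were left out (adjusted p up to 0.189), with median centring (0.0744 and 0.0997) and with all probe sets (0.0601 and 0.0619). Both comparisons share the repressed dnBrg1 arrays. No member passed between repressed dnChd4 and dnSnf2h cells (background 0.015%). There 1 member, Tfrc (0.42, adjusted p = 0.453), and 1579 of all genes had an unadjusted p under 0.05. Slc40a1 and Cp started on the side towards which induction moved them in dnBrg1 cells, and Hmox1 started on the opposite side. The line, its integration site and any expression in the presence of the drug cannot be told apart here.

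Of 15 further genes of iron uptake and trafficking, 1 rose and 4 fell in dnBrg1, 1 and 2 in dnChd4, and 1 and 3 in dnSnf2h cells, with medians of -0.08, -0.08 and -0.12. For these and the lists that follow, the shares of all genes that rose and fell were 8.01% and 6.22% in dnBrg1, 11.2% and 6.82% in dnChd4, and 9.2% and 8.34% in dnSnf2h cells. Lcn2, a siderophore-binding protein, fell by 1.53 in dnBrg1 cells (SE 0.14, limma adjusted p = 1.23e-05). Steap1, of the STEAP metalloreductase family, fell by 0.48, 0.62 and 0.94 in the 3 lines, and Slc25a28, a mitochondrial iron importer, fell by 0.47, 0.32 and 0.54. Slc25a37, the other mitochondrial importer, fell in dnBrg1 (-0.41) and dnSnf2h cells (-0.56), and Mcoln1, a lysosomal cation channel, rose in all 3 (0.43, 0.59 and 0.46). Of 10 further genes of iron export and the hepcidin axis none passed in dnBrg1 cells, where Smad7, an inhibitor of BMP signalling, had the largest change (0.24, adjusted p = 0.278). Heph, a ferroxidase related to ceruloplasmin, rose by 0.46 in dnChd4 cells (adjusted p = 0.0145) and read 0.32 in dnSnf2h cells (adjusted p = 0.0843). Ncoa4, the receptor for ferritin breakdown, was 1 of 5 storage genes and rose in all 3 lines by 0.38, 0.33 and 0.38. Pcbp1, an iron chaperone for ferritin, fell by 0.34 in dnChd4 and 0.47 in dnSnf2h cells. Fbxl5, which targets IRP2 for degradation, passed in none (-0.10, 0.05 and -0.12). With the control arrays in the pooled spread (17 arrays), Lcn2 in dnBrg1 cells alone passed among these lists (limma adjusted p = 0.00526). Minus the control induction as labelled, no gene of them passed in any line (background 0.0903%, 0.0401% and 0%). The control medians on 15 arrays, with a lone repressed array, were 0.10 for uptake, 0.02 for storage and -0.05 for export.

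Of 13 further genes of heme transport and breakdown, 5 rose in dnBrg1 (median 0.11), 4 rose and 1 fell in dnChd4 (0.01), and 1 rose and 1 fell in dnSnf2h cells (0.05), beside 8.01% and 6.22%, 11.2% and 6.82%, and 9.2% and 8.34% of all genes. In dnBrg1 cells Pgrmc1, a heme-binding membrane protein, rose by 0.75, Abcg2, a porphyrin and drug exporter, by 0.79 and Slc46a1, a folate and heme importer, by 0.73 (limma adjusted p = 0.000284, 0.000445 and 0.00061). The other two were the biliverdin reductases Blvra (0.59) and Blvrb (0.43), which act on the product of heme oxygenase and are named after their values were seen. In dnChd4 cells Abcg2 rose by 0.79, Slc46a1 by 0.38, Pgrmc1 by 0.32 and Hebp1, a heme-binding protein, by 0.51, and Slc48a1, a lysosomal heme transporter, fell by 0.36. In dnSnf2h cells Slc46a1 rose by 0.72 and Flvcr1, the heme exporter, fell by 0.48. Of 10 measured genes of heme synthesis, 2 rose in dnBrg1, 5 in dnChd4 and 3 in dnSnf2h cells, where 1 fell, with medians of 0.18, 0.20 and 0.03. Urod, uroporphyrinogen decarboxylase, rose in all 3 (0.46, 0.76 and 0.55). Alas1, which encodes the first enzyme of the pathway, also rose in all 3 (0.53, 0.29 and 0.35), and Fech, ferrochelatase, in dnChd4 (0.68) and dnSnf2h cells (0.55). The mitochondrial membrane proteins Abcb10 and Tmem14c rose in dnChd4 cells (0.44 and 0.37), and Cpox, coproporphyrinogen oxidase, fell in dnSnf2h cells (-0.34). In the control line on 15 arrays 5 genes of heme synthesis rose and none fell (median 0.38), and 6 of heme transport and breakdown rose and 2 fell (median 0.15), where 15.4% of all genes rose and 11.2% fell.

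**Figure D4:**
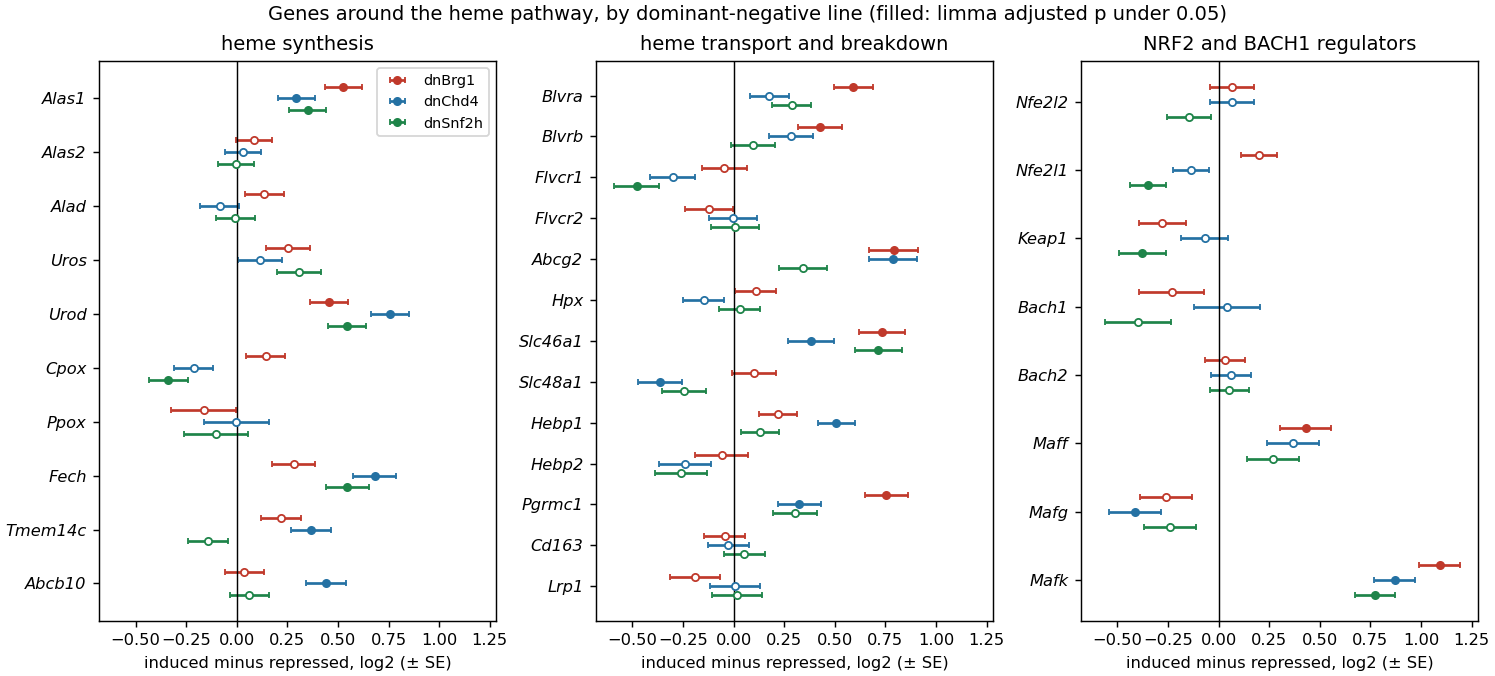
Change on induction (induced minus repressed, log2, with SE bars) of measured genes of heme synthesis, heme transport and breakdown, and the NRF2 and BACH1 regulators, in the 3 dominant-negative lines. Filled symbols passed limma's adjusted p of 0.05. Urod and Mafk are filled in all 3 lines, and Bach1 and Nfe2l2 in none.

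Among the transcription factors known to act on Hmox1, Mafk, a small MAF partner of both BACH1 and NRF2, rose in every dominant-negative line, by 1.09, 0.87 and 0.77 in dnBrg1, dnChd4 and dnSnf2h cells (SE 0.10 each, limma adjusted p = 1.02e-05, 3.29e-05 and 0.000106). In the control line it changed by 0.06 as labelled (adjusted p = 0.995) and rose by 0.65 on 15 arrays (adjusted p = 0.000899). Of 8 such regulators, 2 rose in dnBrg1, 1 rose and 1 fell in dnChd4, and 1 rose and 2 fell in dnSnf2h cells. Maff, a related factor, rose by 0.43 in dnBrg1 cells, and Mafg fell by 0.41 in dnChd4 cells. Nfe2l1 and Keap1, the adaptor that holds NRF2 low, fell by 0.35 and 0.38 in dnSnf2h cells. In the control line as labelled, Maff changed by 0.52, Mafg by -0.11 and Keap1 by 0.04 (limma adjusted p = 0.994 each). On 15 arrays, with a lone repressed control array, these control changes were 0.85, -0.48 and -0.26. The RNA of Bach1 itself (-0.23, 0.04 and -0.40) and of Nfe2l2, which encodes NRF2 (0.06, 0.07 and -0.15), passed in no line. Of 13 other NRF2 targets measured, 1 rose in each line, and 1 fell in dnBrg1, 4 in dnChd4 and 6 in dnSnf2h cells, with medians of -0.21, -0.17 and -0.23, where 6.22%, 6.82% and 8.34% of all genes fell. In the control line on 15 arrays 1 rose and 8 fell (median -0.43), where 11.2% of all genes fell. Slc7a11, the cystine transporter, fell in all 3, with changes of -1.85, -2.58 and -2.75 (adjusted p = 4.36e-06, 1.28e-07 and 1.06e-07). Gclm and Gclc, the subunits of the first enzyme of glutathione synthesis, fell in dnChd4 (-0.61 and -0.46) and dnSnf2h cells (-0.40 each). Gsr, glutathione reductase, fell in the same lines (-0.36 and -0.51), and Txnrd1, thioredoxin reductase, and Cbr3, a carbonyl reductase, fell in dnSnf2h cells (-0.39 and -0.59). Prdx1, a peroxiredoxin, was the gene that rose in each line (0.37, 0.51 and 0.36). Of 14 measured genes of iron-sulfur cluster assembly, 0 rose and 1 fell in dnBrg1, 2 and 1 in dnChd4, and 1 and 1 in dnSnf2h cells. Hspa9, the mitochondrial chaperone that serves assembly among other imports, fell in all 3 (by 0.55, 0.81 and 1.00), Isca2 rose by 0.36 and 0.35 in dnChd4 and dnSnf2h cells, and Ciao1 rose by 0.35 in dnChd4 cells.

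Across the 12 dominant-negative arrays, which share their lines and induction states, Slc40a1 ran opposite to Cp (Pearson r = -0.86) and with Fth1 (0.80), and showed almost no relation to Hmox1 (-0.07). Hmox1 ran with Hmox2 (0.81) and against Tfrc (-0.61), and Ireb2 with Hmox2 (0.82). These are descriptions with no p. By the same measure the genes most like Slc40a1 were Hs3st1 (0.985), Cd36 (0.983) and Atp8b5 (0.982), which over all 17 arrays had r of 0.971, 0.973 and 0.904. Those most like Hmox1 were Nedd4l (0.981), Dbt (0.976) and Pip5k1a (0.975), with 0.970, 0.765 and 0.947 over 17 arrays. For Cp they were Nradd (0.971), Ltbp1 (0.967) and Mgst2 (0.967), with 0.736, 0.658 and 0.810. For Tfrc they were Pard6g (0.937), Nop58 (0.934) and Rsl1d1 (0.932), with -0.134, 0.880 and 0.940, so the likeness of Pard6g was absent once the control arrays were included. Of the 8 mesenchymal markers, 6 fell and none rose on dnBrg1 induction (median -0.70), where 6.22% of all genes fell. In dnSnf2h cells 3 fell and none rose (median -0.30), where 8.34% of all genes fell. In dnChd4 cells 1 rose and none fell (median -0.18), where 11.2% of all genes rose and 6.82% fell. The summed linear signal of the 9 epithelial markers, of which Krt14 had the highest median, was also lower on induction. It went from 486 to 489 repressed to 374 to 394 induced in dnBrg1 cells. The ranges were 755 to 780 and 515 to 544 in dnChd4, and 768 to 800 and 519 to 530 in dnSnf2h cells. Control cells had 451 to 455 repressed and 381 to 496 induced. The part of either marker set in these results was not tested.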

How the data were processed

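RNA of 17 samples was measured on Affymetrix arrays. The deposited table holds log2 values, 1 per probe set and array, which the authors made with Affymetrix Expression Console, per the submitters' processing notes. No label names its version, the normalization or a genome build. An array has no read depth, and 2 to 3 arrays per group limit the precision. Of 35557 probe sets, 21789 had 1 gene symbol. The probe set with the highest mean was kept per gene, leaving 19938 genes. Groups came from the sample titles.

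limma 3.58.1 in R 4.3.3 (lmFit, contrasts.fit, eBayes) fitted 1 mean per group over all genes, with Benjamini-Hochberg adjustment over all genes and a threshold of 0.05, in 13 contrasts. Contrasts among dominant-negative lines used their 12 arrays (6 residual degrees of freedom), the rest all 17 (9) or 15 (7). The 12-array fit alone was tested on simulated data, with independent normal values and, for each gene, the same spread in every group. That setting does not cover unequal spread or technical replicates, and the fits on 17 and 15 arrays were not simulated. The members, gene lists and the 12-array design were chosen with earlier results of these data known. Named list genes are up to 3 per list and line by smallest adjusted p, or the largest change where none passed, and further list genes that passed were named after their values were seen. Like genes are the 3 with the highest r, passing over predicted and clone names. Other settings tried are given in the closing section.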

Additional observations from a re-analysis of the deposited data

Results flagged for a closer look

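The response of Slc40a1 differed between lines by a test of the difference itself. Its induction in dnBrg1 cells exceeded that in dnChd4 cells by 1.61 (SE 0.16, limma adjusted p = 5.05e-05), that in dnSnf2h cells by 1.66 (SE 0.16, adjusted p = 0.00017) and that in control cells as labelled by 1.93 (SE 0.16, adjusted p = 0.000189). Both induced dnBrg1 arrays were above every other array of the series. The 3 differences share the dnBrg1 arrays, and the cause was not tested.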

How the results depend on the processing

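The changes of Slc40a1, Cp and Hmox1 in dnBrg1 cells passed under every leave-one-out fit on the 12 arrays, with changes of 1.63 to 1.82, -2.16 to -1.86 and 1.29 to 1.43. Of 117 member results, 24 passed, 7 of those were lost when some single array was left out, and 3 turned direction with a call. These were Tfrc in dnBrg1, dnChd4 and dnSnf2h minus control, at 1.37, 1.15 and 1.15 on 15 arrays. A further 99 sign changes concerned results called in neither fit. With 17 arrays, members passing fell to 2 in dnBrg1, 0 in dnChd4 and 0 in dnSnf2h cells and to 1 in both repressed comparisons with dnBrg1. Genes passing fell to 68, 19 and 1 in the lines, 26, 7 and 8 for the differences among them (dnBrg1 minus dnChd4, dnBrg1 minus dnSnf2h, dnChd4 minus dnSnf2h) and 804, 775 and 0 for the same pairs repressed, from 2839, 3590, 3497, 254, 126, 26, 2875, 2857 and 3. The larger spread of the control groups enters that fit. On 15 arrays, 5 members and 5310 genes passed in control cells, and 3, 1 and 1 members and 1386, 163 and 414 genes in dnBrg1, dnChd4 and dnSnf2h minus control, from 18, 8 and 0 genes as labelled. The dnSnf2h line alone gave 1446 genes.

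All probe sets gave 89, 26, 11, 7, 5 and 0 genes for dnBrg1 minus dnChd4, dnBrg1 minus dnSnf2h, dnChd4 minus dnSnf2h, dnBrg1 minus control, dnChd4 minus control, and repressed dnChd4 minus dnSnf2h. Quantile normalization gave 2 members for dnBrg1 minus dnChd4 and for dnBrg1 minus dnSnf2h (Hmox1 added) and 1 gene for repressed dnChd4 minus dnSnf2h, as did median centring for the last. Without the dimmest 30% of genes, which removes Slc40a1 itself, no member passed in dnBrg1 minus dnSnf2h or minus control, and 11 genes passed in the latter. Hmox2 in dnChd4 and Ireb2 in dnSnf2h cells passed with trended and robust eBayes, with quantile normalization and without the dimmest genes. Leaving out each array in turn gave 3 to 5, 2 to 5 and 3 to 5 members and 1353 to 3423, 1926 to 4180 and 2342 to 4204 genes in dnBrg1, dnChd4 and dnSnf2h cells, and 0 to 4 genes in control cells. It gave 1 to 2 members for dnBrg1 minus dnChd4 or dnSnf2h, and 106 to 382, 46 to 265 and 15 to 175 genes for the 3 differences. Minus control it gave 6 to 60, 5 to 16 and 0 to 19 genes, and among repressed lines 1345 to 3508, 1784 to 3377 and 0 to 500.

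With 2 shared replicate numbers the pairing could not be established: same-numbered deviations within the lines correlated at 0.016, 0.135 and 0.313. The replicate block gave 2676, 3463 and 3313 genes in the lines, 2 members for dnBrg1 minus dnChd4 (Cp added, -0.999, adjusted p = 0.0460), 10 genes for dnBrg1 minus control and 1 for repressed dnChd4 minus dnSnf2h, and changed no other member call. Between repressed dnBrg1 and dnSnf2h same-numbered deviations correlated at -0.287, and a crossed block, chosen after seeing the data, gave 4 members and 3419 genes. An array left as the lone sample of a group is assumed to vary like the other groups. Signals near the low end of the scale, as for Slc40a1 outside induced dnBrg1 cells, limit what could be seen to change, above all to fall.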
